A study of Mus musculus with 48 samples.

Results

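Cerebral cortex from 12-month-old Chd8 V986*/+ and WT mice was compared across all genes of the deposited expression table. The samples were chosen by the age and genotype in their labels, and the 6 Chd8 V986*/+ and 6 WT mice of this age make up 12 of the 48 samples in the series. All 12 were male C57BL/6J mice from a line studied with littermate controls, with no litter given for single mice, and dissected cortex from one hemisphere was taken from each mouse. Chd8 V986*/+ mice carry tandem stop codons at V986 and E987 on one copy of Chd8, inserted with CRISPR/Cas9, and the line descends from a single male founder that was backcrossed to C57BL/6J. WT mice carry the allele on neither copy. The mutation is present in every cell of the body, so no group is limited to a cell type. The study followed these genotypes to ask how the consequences of losing one Chd8 copy depend on age, and 12 months is its oldest age.

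CHD8 is an ATP-dependent chromatin remodeler that binds active promoters, and loss of one copy of its gene is a known cause of autism spectrum disorder with macrocephaly. Newly made proteins are folded in the cytosol by the HSP70, HSP90 and TRiC chaperones, whose genes are induced by the transcription factor HSF1, and in the endoplasmic reticulum (ER) by BiP, GRP94 and the protein disulfide isomerases, whose genes are induced in the unfolded protein response (UPR) by ATF6 and XBP1.

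Expression is given as variance-stabilizing transformation (VST) values on a log2 scale, and a log2 fold-change is the mean of Chd8 V986*/+ mice minus the mean of WT mice on that scale, which understates the change of weakly expressed genes. Read depth of the 12 samples was 16151011 to 61621924 reads, with medians of 30372277 in WT and 30893604.5 in Chd8 V986*/+ mice, and the depth behind single genes is unknown. Markers of excitatory neurons, astrocytes, oligodendrocytes and microglia were expressed in every sample, with mean levels of 11.83 to 12.38, 12.55 to 12.93, 11.74 to 12.02 and 9.67 to 10.06. Markers of the midbrain, hindbrain and hypothalamus had mean levels of 3.42 to 4.94, near the floor of the scale at 2.14. Replicates 1 to 3 and replicates 4 to 6 had been brought to equal means before deposition, and values within each of these sets are given beside the main results. WT mice varied more than Chd8 V986*/+ mice, with a median SD over genes of 0.18 against 0.12, and the SD was larger in WT mice for 12088 of 17288 genes. WT replicate 6 stood furthest from the other mice, with a root mean square deviation of 0.306 against 0.168 to 0.256 in the other 11. In bulk tissue, fewer cells of a type and less RNA per cell cannot be told apart.

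Chd8, the targeted gene, lies on chromosome 14 from 52817826 to 52857466 (mm9, minus strand). It had values of 11.36 to 11.80 (median 11.69) in WT mice and 11.09 to 11.17 (median 11.10) in Chd8 V986*/+ mice. No Chd8 V986*/+ mouse reached the lowest WT mouse, and expression was 68.8% of WT (log2 fold-change of −0.54, standard error 0.06, limma adjp = 0.0026, exact two-sided permutation test p = 0.0022, the smallest that 6 against 6 mice allow). The fold-change was −0.61 within replicates 1 to 3 and −0.46 within replicates 4 to 6, where WT replicate 6 at 11.36 was closest to the Chd8 V986*/+ mice. The other 14 CHD remodelers and CHD8 partner proteins on the list had no unadjusted p below 0.05. Chd5, a neuronal CHD family member, had a fold-change of 0.20 (limma adjp = 0.48), and Wdr5, Ash2l and Rbbp5, which encode subunits of the histone methyltransferase complex that CHD8 binds, had fold-changes of −0.10, −0.07 and −0.07 (limma adjp = 0.50, 0.60 and 0.62).

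Differential expression at adjp below 0.1 was found for 8 of 17288 genes, or 0.0463%, of which 7 fell in Chd8 V986*/+ mice. The remaining gene, Tspan10, was at the floor in all WT mice and passed the filter on low values only through the Chd8 V986*/+ mice, so its test is not read as a change. In each of the 8 genes the genotypes did not overlap, as in 150 genes in all, or 0.868% of those tested. The calls were made in the same mice, so this is a description and not separate support. Besides Chd8, the genes that fell encode enzymes of lipid, hormone and amino acid metabolism, a lipid transporter, a neuropeptide and a deubiquitinase. An unadjusted p below 0.05 was found for 1069 genes that were higher (6.18%) and 931 that were lower (5.39%) in Chd8 V986*/+ mice, and the median log2 fold-change over all genes was 0.0046.

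Acer2, which encodes an alkaline ceramidase that splits ceramide into sphingosine and fatty acid, lies on chromosome 4 from 86520300 to 86580726. Its values were 8.06 to 8.88 (median 8.50) in WT mice and 7.40 to 7.81 (median 7.59) in Chd8 V986*/+ mice. Every Chd8 V986*/+ mouse was below every WT mouse, and expression fell to 54.0% of WT (−0.89, standard error 0.12, limma adjp = 0.0099). It was −0.71 within replicates 1 to 3 and −1.07 within replicates 4 to 6. Of the other 23 enzymes of ceramide metabolism tested, Sgms1, a sphingomyelin synthase, had an unadjusted p below 0.05, with a fold-change of −0.17 (limma adjp = 0.38).

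Dio3 encodes the type 3 deiodinase, which inactivates thyroid hormone, and lies on chromosome 12 from 111517278 to 111519307. Its values were 5.89 to 6.62 (median 6.23) in WT mice and 5.10 to 5.73 (median 5.48) in Chd8 V986*/+ mice, with no overlap (−0.81, standard error 0.14, limma adjp = 0.075). The fold-change was −0.89 within replicates 1 to 3 and −0.73 within replicates 4 to 6. On the list of 13 thyroid hormone genes, 5 were lower and 1 was higher at an unadjusted p below 0.05, and the median was −0.15. Thrsp, a thyroid hormone-responsive gene of lipid synthesis, was apart between the genotypes, at 8.71 to 9.75 in WT and 8.35 to 8.70 in Chd8 V986*/+ mice (−0.57, limma adjp = 0.21). Crym, which encodes a thyroid hormone-binding protein of the cytosol, had a fold-change of −0.28 (limma adjp = 0.21), and Dio2, the activating deiodinase made by astrocytes, one of −0.37 (limma adjp = 0.40).

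Cort, the neuropeptide cortistatin of cortical interneurons, lies on chromosome 4 from 148499143 to 148500872. It was 6.92 to 7.27 (median 7.13) in WT mice and 6.44 to 6.69 (median 6.57) in Chd8 V986*/+ mice, and the genotypes did not overlap (−0.54, standard error 0.09, limma adjp = 0.075). It was −0.51 within replicates 1 to 3 and −0.58 within replicates 4 to 6. Sst, the related peptide somatostatin that is made in the same class of interneurons, was 11.72 to 12.18 in WT mice against 11.32 to 11.84 in Chd8 V986*/+ mice, which overlapped (−0.26, limma adjp = 0.29). Of 17 cortical neuropeptides, 3 were lower and 0 were higher at an unadjusted p below 0.05, with a median of −0.17, which was −0.06 within replicates 1 to 3 and −0.35 within replicates 4 to 6.

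Aass, on chromosome 6 from 23022173 to 23082986, encodes the enzyme that starts lysine degradation. Its values of 7.22 to 7.86 (median 7.58) in WT and 6.71 to 7.13 (median 6.96) in Chd8 V986*/+ mice did not overlap (−0.64, standard error 0.12, limma adjp = 0.082). Abca8a, an ABC lipid transporter on chromosome 11 from 109886948 to 109957292, was 8.72 to 9.02 (median 8.92) in WT mice against 8.15 to 8.57 (median 8.50) in Chd8 V986*/+ mice, again with no overlap (−0.45, standard error 0.08, limma adjp = 0.075). Within replicates 1 to 3 and 4 to 6, the fold-change was −0.54 and −0.74 for Aass and −0.49 and −0.42 for Abca8a. No other of 18 genes of lysine and amino acid catabolism was called, and the paralog Abca8b differed by 0.11 (limma adjp = 0.64). Usp11, a deubiquitinase gene on chromosome X from 20281032 to 20297665, was 11.66 to 11.84 in WT mice against 11.35 to 11.55 in Chd8 V986*/+ mice (−0.34, limma adjp = 0.035), and −0.39 and −0.28 within the sets of replicates.

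Tspan10, which encodes a tetraspanin membrane protein, lies on chromosome 11 from 120303945 to 120308635. All 6 WT mice were at the floor of the scale, at 2.08 in replicates 1 to 3 and 2.20 in replicates 4 to 6, and the 6 Chd8 V986*/+ mice were at 2.96 to 3.81 (median 3.21), so no fold and no test are given, and the values are a description.

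**Figure D1:**
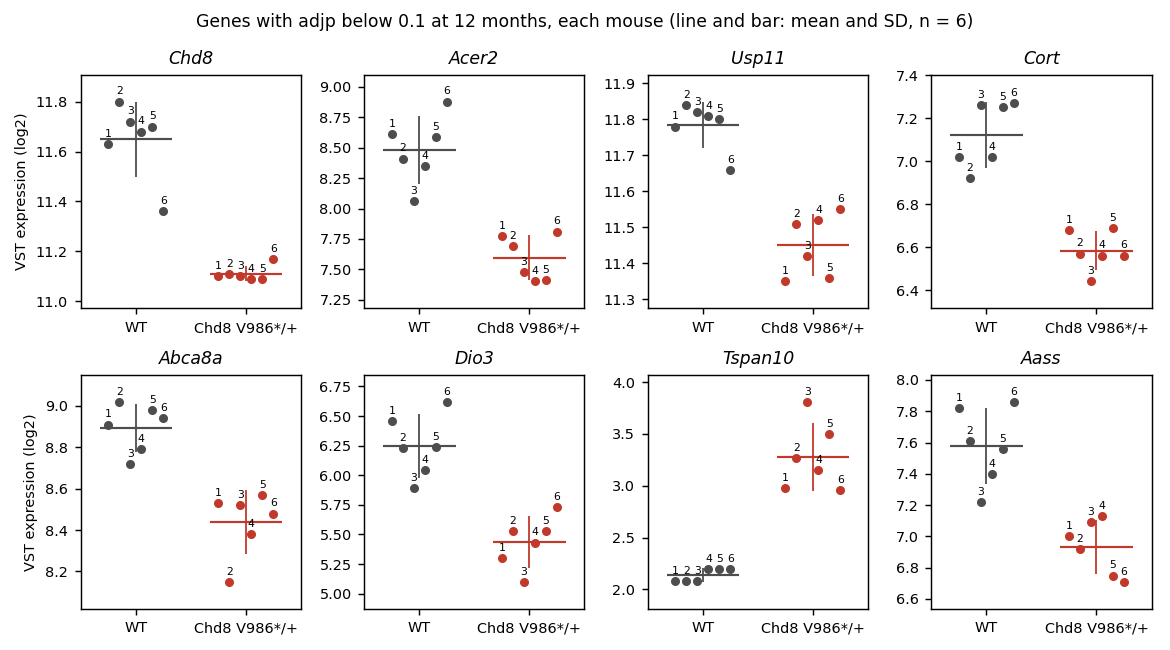
VST expression (log2) of the 8 genes with adjp below 0.1 in each of the 12 mice, with WT mice in grey and Chd8 V986*/+ mice in red. Numbers are replicate numbers, and lines and bars are means and SD of 6 mice. In each panel the genotypes do not overlap, and WT replicate 6 is the lowest WT mouse for Chd8 at 11.36.

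The calls rested unequally on single mice and settings. Of 30 fits under different settings, Chd8 was called in 29, Acer2 in 25, Usp11 in 20, Cort in 14, Abca8a in 11, Dio3 in 11 and Aass in 7. The direction was the same in all of these fits for each of these 7 genes. WT replicates 3 and 4 had the lowest WT values for Acer2 (8.06 and 8.35), Dio3 (5.89 and 6.04), Aass (7.22 and 7.40) and Abca8a (8.72 and 8.79). This was not so for Chd8, Usp11 or Cort. With the mean of glucocorticoid-induced genes as a covariate, 1 of the 8 genes was still called. In that fit limma adjp was 0.979 for Abca8a and 0.999 for Aass.

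Among the genes not called, the 12 higher and the 12 lower ones with the lowest unadjusted p and no overlap of the genotypes were taken. Both numbers were set in advance. Egfl6, which encodes a secreted EGF repeat protein, was 6.10 to 7.07 in WT mice against 7.18 to 7.52 in Chd8 V986*/+ mice (0.83, limma adjp = 0.10). Trim7, a ubiquitin ligase gene, was 5.22 to 5.67 against 5.75 to 6.32 (0.62, limma adjp = 0.10). BC025920 differed by 0.49 (limma adjp = 0.10), and Parva, which encodes the focal adhesion protein alpha-parvin, by 0.26 (limma adjp = 0.21). Golm1, a Golgi membrane protein gene, was 9.98 to 10.32 in WT mice against 9.52 to 9.88 in Chd8 V986*/+ mice (−0.39, limma adjp = 0.10). Among the remaining lower genes were Syngr3, which encodes a synaptic vesicle protein (−0.26), the transcription factor genes Elk1 (−0.22) and Cebpa (−0.25), and Hsp90ab1, which encodes the constitutive cytosolic HSP90 (−0.32), each with a limma adjp of 0.21.

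Many genes of ER protein folding were lower in Chd8 V986*/+ mice at an unadjusted p, and none was called. Of 30 ER folding enzymes and chaperones tested, 15 were lower and 0 were higher at an unadjusted p below 0.05, against 5.39% and 6.18% of all genes, and the median was −0.19. Hspa5, which encodes BiP, the main HSP70 of the ER, had values of 13.29, 13.33, 12.44, 12.50, 13.45 and 13.56 in WT replicates 1 to 6 and of 12.63, 12.54, 12.57, 12.49, 12.60 and 12.49 in Chd8 V986*/+ replicates 1 to 6. WT replicates 1, 2, 5 and 6 lay above all Chd8 V986*/+ mice, and WT replicates 3 and 4 lay within or below their range (−0.54, standard error 0.16, limma adjp = 0.26). Sdf2l1, a cofactor of BiP, was 8.50, 8.59, 7.44, 7.60, 8.69 and 8.75 in the WT mice and 7.29 to 7.78 in the Chd8 V986*/+ mice (−0.78, limma adjp = 0.21). The same 4 WT mice were the high ones for Pdia6, a protein disulfide isomerase (−0.48, limma adjp = 0.21), for Manf, a secreted ER stress protein (−0.46, limma adjp = 0.22), and for Hsp90b1, which encodes GRP94, the HSP90 of the ER (−0.35, limma adjp = 0.22).

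The promoters of these genes are shown because several carry the ER stress response element, the site through which ATF6 and XBP1 act. The element was searched as CCAAT, 9 bases and CCACG on both strands, in windows from 250 bases before to 50 bases after each start in RefSeq (GRCm38.p6), and its CCAAT letters alone are also those of a common promoter box. It was found in 8 of 26 matched genes of ER folding (30.8%) and in 37 of 27025 gene symbols (0.137%). Since the list holds genes that ATF6 and XBP1 induce, the higher share is a description and not a result. The stretches of the 6 ER folding genes that held it and were lower at an unadjusted p below 0.05 follow along the strand of the gene, with the letters of the element in capitals and 25 bases on each side. Where the capitals read CGTGG and ATTGG, the element lies on the other strand. Hspa5 is at chr2:34772000-34772068 on the plus strand, Pdia6 at chr12:17266466-17266534 (plus), Creld2 at chr15:88819495-88819563 (plus), Dnajc3 at chr14:118937802-118937870 (plus), Calr at chr8:84847050-84847118 (minus) and Hsp90b1, with 2 elements, at chr10:86705508-86705681 (minus).
Hspa5: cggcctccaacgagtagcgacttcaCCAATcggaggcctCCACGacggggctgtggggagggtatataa
Pdia6: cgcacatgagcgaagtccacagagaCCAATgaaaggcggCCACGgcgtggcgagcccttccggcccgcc
Creld2: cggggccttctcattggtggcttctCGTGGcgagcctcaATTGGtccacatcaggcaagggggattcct
Dnajc3: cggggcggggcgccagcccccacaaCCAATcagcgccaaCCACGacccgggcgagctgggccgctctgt
Calr: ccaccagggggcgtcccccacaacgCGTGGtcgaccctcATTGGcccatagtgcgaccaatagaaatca
Hsp90b1: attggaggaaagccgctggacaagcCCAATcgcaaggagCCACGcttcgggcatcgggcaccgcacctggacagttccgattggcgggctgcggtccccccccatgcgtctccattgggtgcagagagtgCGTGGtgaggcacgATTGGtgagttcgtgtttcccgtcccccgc

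Among all 23 tested genes whose promoter held the ER stress response element, these 6 were the ones lower at an unadjusted p below 0.05 (26.09%), Pan2, which encodes a deadenylase, was higher, and the median was −0.11. All 6 belong to the ER folding list, and no gene with the element outside that list was lower at such a p. The share of lower genes thus repeats the count of the list and is not separate support. Among the 13580 tested genes matched to a promoter, 5.38% were lower and 6.09% higher, with a median of 0.0036. Calr, which encodes the lectin chaperone calreticulin, differed by −0.45 (limma adjp = 0.25), Creld2, an ER stress-induced disulfide isomerase, by −0.32 (limma adjp = 0.31), and Dnajc3, an ER cochaperone of BiP, by −0.20 (limma adjp = 0.32). The other 2 ER folding genes with the element were Canx, which encodes calnexin (−0.10, limma adjp = 0.49), and Ero1lb, an ER oxidase listed in RefSeq as Ero1b (−0.01, limma adjp = 0.96).

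Of 25 UPR sensors and transcription factors, 3 were lower and 1 was higher at an unadjusted p below 0.05, with a median of −0.03. Xbp1 was 10.74 to 11.36 (median 11.11) in WT mice against 10.67 to 10.88 (median 10.73) in Chd8 V986*/+ mice (−0.33, limma adjp = 0.21). Ddit3, which encodes the proapoptotic factor CHOP, was 8.67 to 9.06 in WT mice against 8.54 to 8.71 in Chd8 V986*/+ mice (−0.29, limma adjp = 0.21), and Atf4, the effector of the PERK branch, differed by −0.17 (limma adjp = 0.29). Nupr1, a stress-induced nuclear protein gene, was the higher one (0.25, limma adjp = 0.34). Of the genes of the ER translocon and N-glycosylation, 7 of 31 were lower and 0 higher, led by Stt3b and Rpn1, subunits of the oligosaccharyltransferase (−0.19 and −0.20, limma adjp = 0.25 and 0.27). For ER-associated degradation it was 4 of 23, and for the proteasome 1 of 31, Psmc5 (−0.13, limma adjp = 0.33).

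Among the cytosolic chaperones, the counts differed by group. Of 22 HSP90 genes and cochaperones, 11 were lower and 0 were higher at an unadjusted p below 0.05, with a median of −0.12. In 2 of the 22 the genotypes did not overlap, against 150 of all 17288 genes (0.868%). Hsp90ab1 was 15.31 to 15.71 (median 15.59) in WT mice against 15.17 to 15.25 (median 15.21) in Chd8 V986*/+ mice, and Hsp90aa1, the inducible HSP90, was 14.11 to 14.47 (median 14.33) against 13.99 to 14.10 (median 14.06) (−0.24, limma adjp = 0.23). The cochaperones Fkbp4, Ahsa1 and Stip1 differed by −0.34, −0.37 and −0.39 (limma adjp = 0.22, 0.23 and 0.28). WT replicates 3 and 4 held the lowest WT values for each of these 5 genes.

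Of 12 HSP70 and HSP110 genes, 5 were lower and 0 were higher, with a median of −0.14. Hspa8, the constitutive HSP70, was 14.99, 15.07, 14.58, 14.58, 15.18 and 15.26 in WT replicates 1 to 6 and 14.47 to 14.62 in Chd8 V986*/+ mice (−0.37, limma adjp = 0.25). Hspa1b, an inducible HSP70, was 8.27, 8.75, 6.92, 7.39, 8.91 and 8.38 in the same WT mice and 7.11 to 7.36 in Chd8 V986*/+ mice (−0.84, limma adjp = 0.27), and its near-identical copy Hspa1a differed by −0.53 (limma adjp = 0.32), with reads that may have been shared between both genes. Hsph1, the HSP110 nucleotide exchange factor, differed by −0.47 (limma adjp = 0.23). In each of these genes the same 4 WT mice were high, and WT replicates 3 and 4 lay within or near the range of the Chd8 V986*/+ mice.

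Of 14 genes of the TRiC chaperonin, which folds actin and tubulin, and of prefoldin, 7 were lower and 0 higher, with a median of −0.13 that was −0.07 within replicates 1 to 3 and −0.21 within replicates 4 to 6. Without WT replicate 6, whose mean level for this group was 11.25 against 10.94 to 11.03 in the other WT mice, 5 were lower and the median was −0.08. Cct7 was 12.00 to 12.39 in WT mice against 11.90 to 11.98 in Chd8 V986*/+ mice, with no overlap (−0.22, limma adjp = 0.23). Small heat shock proteins and HSF1 factors included 4 lower and 1 higher of 18, among them Cryab (−0.44, limma adjp = 0.27) and Hspb1 (−0.70, limma adjp = 0.33). Hsf1 itself differed by −0.11 (limma adjp = 0.56). Of 20 DNAJ cochaperones, 3 were lower, led by Dnaja1 (−0.23, limma adjp = 0.28), and of 12 mitochondrial chaperones 2 were lower, including Hspe1, the mitochondrial HSP10 (−0.38, limma adjp = 0.33).

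Few of these cytosolic genes had an exact heat shock element in the searched window. The element was read as 3 alternating units of GAA and TTC with 2 bases between units, on both strands. Imperfect elements and sites outside the window were not searched, so genes without a match may still carry one. Among the DNAJ cochaperones, Dnajb6 had a match. The exact element was found in 1 of 10 matched HSP70 and HSP110 genes (Hsph1), 1 of 17 HSP90 genes (Chordc1) and 2 of 9 mitochondrial chaperones, against 179 of 27025 symbols (0.662%). The mitochondrial genes Hspe1 and Hspd1 share this promoter, read from opposite strands, and it is shown because they differ by −0.38 and −0.11 (limma adjp = 0.33 and 0.53). The stretch lies at chr1:55088034-55088101 (GRCm38.p6, plus strand), with its overlapping units in capitals.
Hspe1: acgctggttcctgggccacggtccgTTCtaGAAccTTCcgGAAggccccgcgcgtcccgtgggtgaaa

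Among all 80 tested genes with a heat shock element, 10 were lower (12.5%) and 5 higher (6.25%) at an unadjusted p below 0.05, with a median of 0.02. Among all tested genes matched to a promoter, 5.38% were lower and 6.09% higher. At any p, 38 of the 80 genes were lower and 42 higher.

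**Figure D2:**
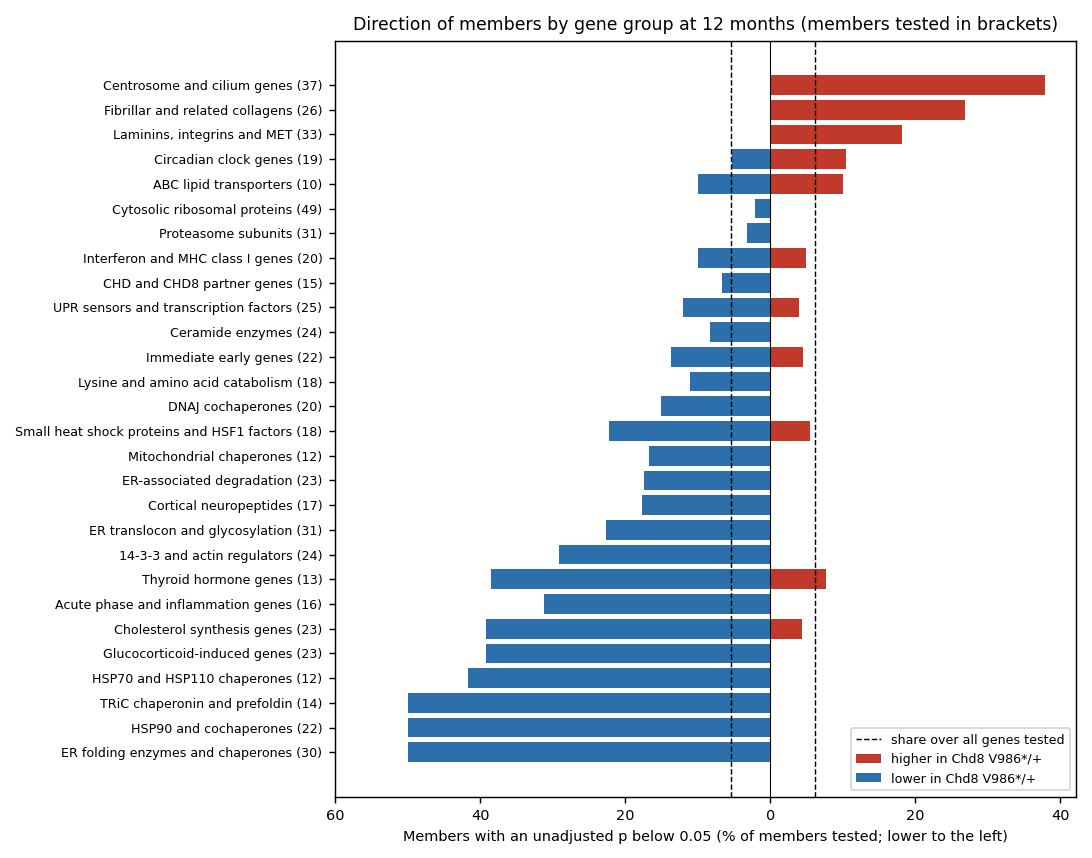
Share of tested members with an unadjusted p below 0.05, in percent, for 28 gene groups, with members lower in Chd8 V986*/+ mice in blue to the left and higher members in red to the right. Dashed lines mark the shares over all genes tested, 5.39% lower and 6.18% higher, and the groups furthest to the left are the ER folding, HSP90 and TRiC genes, each with 50% of members lower.

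Other groups also varied across these mice. Glucocorticoid-induced genes had mean levels of 9.05 to 9.97 in WT and 9.02 to 9.66 in Chd8 V986*/+ mice, and 9 of 23 were lower and 0 higher at an unadjusted p below 0.05, with a median of −0.33. Fkbp5, an HSP90 cochaperone induced by the glucocorticoid receptor, was 10.37, 10.71, 9.88, 10.08, 10.62 and 10.33 in WT replicates 1 to 6 and 9.80 to 10.40 in Chd8 V986*/+ mice, of which replicate 6 was the highest (−0.37, limma adjp = 0.31). Lcn2, which encodes the secreted acute phase protein lipocalin 2, was 7.72, 6.75, 2.94, 2.28, 7.44 and 8.20 in WT mice against 2.01 to 3.74 in Chd8 V986*/+ mice (−2.85, standard error 0.86, limma adjp = 0.26). Among 16 acute phase and inflammation genes, 5 were lower and 0 higher, including Lrg1, a secreted acute phase glycoprotein (−1.03, limma adjp = 0.21), and Serpina3n, a protease inhibitor of reactive astrocytes (−0.51, limma adjp = 0.21).

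The 2 cold-induced RNA-binding proteins had the opposite sign. Rbm3 was 9.25, 9.58, 10.50, 10.33, 9.57 and 9.26 in WT replicates 1 to 6 and 9.98 to 10.62 in Chd8 V986*/+ mice (0.56, limma adjp = 0.29), and Cirbp was 9.34, 9.37, 10.42, 10.50, 9.38 and 9.38 against 9.89 to 10.35 (0.42, limma adjp = 0.42). WT replicates 3 and 4, which had the low chaperone levels, lay within the range of the Chd8 V986*/+ mice for Rbm3 and above it for Cirbp, and the other 4 WT mice lay below all Chd8 V986*/+ mice.

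**Figure D3:**
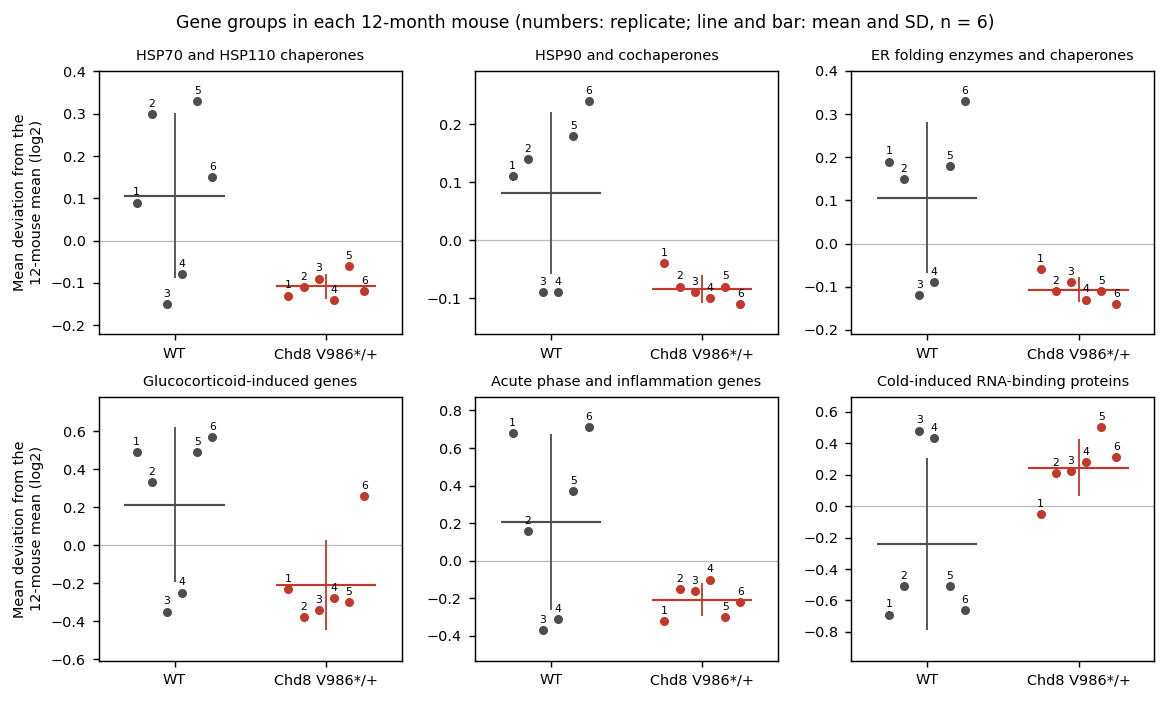
Mean deviation from the 12-mouse mean (log2) over the members of 6 gene groups, in each WT (grey) and Chd8 V986*/+ (red) mouse, with replicate numbers, means and SD of 6 mice. WT replicates 3 and 4 sit with the Chd8 V986*/+ mice in the panels of HSP70, HSP90, ER folding and cold-induced genes, where they are at −0.15 and −0.08, −0.09 and −0.09, −0.12 and −0.09, and 0.48 and 0.43.

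When the mean of Cirbp and Rbm3 was entered as a covariate, the number of lower genes at an unadjusted p below 0.05 was 4 of 30 for ER folding, 2 of 22 for HSP90 and 0 of 12 for HSP70 and HSP110, and 688 genes in all had such a p. With glucocorticoid-induced genes as the covariate, it was 1 of 30, 2 of 22 and 0 of 12, and again 688 genes in all. The medians of these 3 groups stayed negative, at −0.06, −0.03 and −0.07 with the first covariate and −0.09, −0.04 and −0.08 with the second. Both covariates are themselves measured in these mice and differ between the genotypes, and their part in the chaperone values was not tested further.

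Leaving out single WT mice moved the calls. Without WT replicate 3, 251 of all 17288 genes were called, 109 higher and 142 lower. Among them were 10 of 30 ER folding genes, 7 of 22 HSP90 genes and 4 of 12 HSP70 and HSP110 genes, all lower. Without WT replicate 4 there were 16 calls and none in these 3 groups. Without WT replicate 6 there were 5, and the counts at an unadjusted p below 0.05 were 13 for ER folding, 10 for HSP90 and 6 for HSP70 and HSP110, with medians of −0.12, −0.11 and −0.14. One fit of all 48 samples, which estimates the spread from all ages, called 520 of all 17288 genes at 12 months, 235 higher and 285 lower. Among them were 9 of 30 ER folding, 10 of 22 HSP90 and 3 of 12 HSP70 and HSP110 genes, all lower. The median for ER folding was −0.11 within replicates 1 to 3 and −0.29 within replicates 4 to 6.

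**Figure D4:**
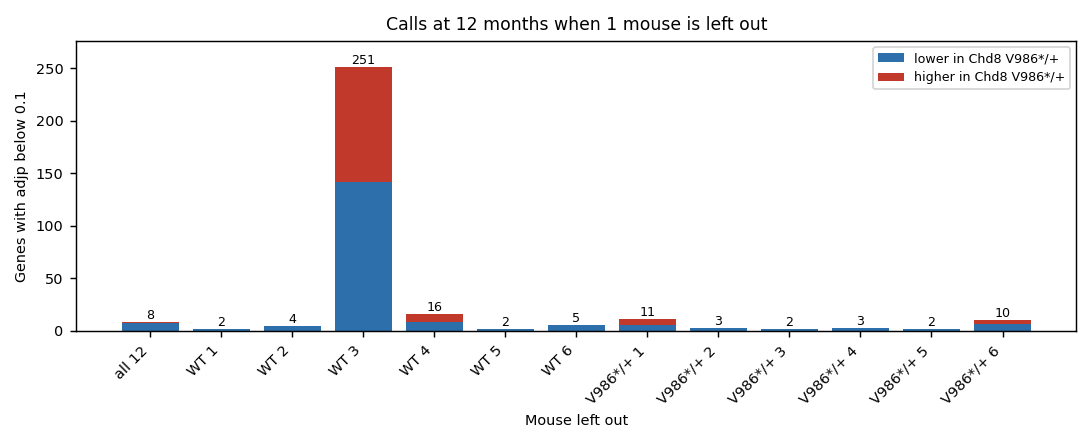
Number of genes with adjp below 0.1 at 12 months in all 12 mice and after leaving out each mouse in turn, with genes lower in Chd8 V986*/+ mice in blue and higher genes in red. The count is 8 with all mice, 251 without WT replicate 3, and 2 to 16 in the other 11 fits.

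Among the groups that were higher in Chd8 V986*/+ mice, centrosome and cilium genes led by number, with 14 of 37 higher and 0 lower at an unadjusted p below 0.05 and a median of 0.14. Their mean level was 8.55 to 8.89 in WT mice against 8.88 to 8.94 in Chd8 V986*/+ mice. Cep63, which is required for centriole duplication, was 8.75 to 8.97 (median 8.82) in WT mice against 8.97 to 9.25 (median 9.10) in Chd8 V986*/+ mice (0.27, limma adjp = 0.21). Ofd1, a gene of the ciliary basal body, was 7.75 to 7.98 against 7.99 to 8.24 (0.30, limma adjp = 0.21), and Cntrob, a centriole protein gene, 7.99 to 8.52 against 8.56 to 8.75 (0.32, limma adjp = 0.21). Ofd1 and Cntrob did not overlap between the genotypes, as was so for 0.868% of all genes tested. For Cep63 the highest WT and the lowest Chd8 V986*/+ value were both 8.97. Without WT replicate 6, the mouse with the lowest mean level, the count was 13 and the median 0.07, and with the mean of Cirbp and Rbm3 as a covariate the count was 6.

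Of 26 collagen genes, 7 were higher and 0 lower, with a median of 0.27 that was 0.20 within replicates 1 to 3 and 0.30 within replicates 4 to 6. Col27a1, a cartilage-type fibrillar collagen, was 6.02 to 6.98 in WT mice against 6.95 to 7.51 in Chd8 V986*/+ mice (0.54, limma adjp = 0.23), and Col6a1, a microfibrillar collagen, 9.05 to 9.74 against 9.10 to 10.25 (0.52, limma adjp = 0.27). Of 33 laminins, integrins and genes of MET signaling, 6 were higher and 0 lower, with a median of 0.10 that was 0.03 without WT replicate 6. Itga2, among these 6, was near the floor in WT mice, at 2.14 to 2.85 (median 2.15). It passed the filter on low values only through the Chd8 V986*/+ mice, so its difference is not read as a change. With a filter at 1.5 above the floor, 5 of 31 were higher. Lama5, a basement membrane laminin chain, was 7.47 in WT replicate 6, 8.23 to 8.27 in the other WT mice and 8.36 to 8.75 in Chd8 V986*/+ mice (0.39, limma adjp = 0.28). Hgf, the ligand of the receptor tyrosine kinase MET, differed by 0.41 (limma adjp = 0.28), and Met by 0.21 (limma adjp = 0.47).

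Of 23 genes of cholesterol synthesis, 9 were lower and 1 higher, with a median of −0.11. Msmo1, a sterol methyl oxidase, was 11.43 to 11.55 in WT mice against 11.15 to 11.40 in Chd8 V986*/+ mice, without overlap (−0.18, limma adjp = 0.25). WT replicates 3 and 4 lay among the other WT mice for this gene. With Cirbp and Rbm3 or the glucocorticoid-induced genes as a covariate 7 and 10 genes of the group were lower, and with olfactory markers 2 were. Of 24 genes of 14-3-3 proteins and actin regulators, 7 were lower and 0 higher, with a median of −0.11, led by Arpc2 and Arpc5, subunits of the actin-nucleating Arp2/3 complex (−0.23 and −0.29, limma adjp = 0.21 and 0.23).

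Markers of tissue next to the cortex also differed between the dissections. Markers of olfactory bulb, claustrum and piriform cortex had mean levels of 7.28 to 7.99 in WT and 7.19 to 9.60 in Chd8 V986*/+ mice, and 5 of 10 were higher at an unadjusted p below 0.05, with a median of 0.92. Eomes, expressed in olfactory projection neurons, was at most 5.07 in WT mice and 2.71, 6.62, 8.92, 6.59, 5.11 and 4.48 in Chd8 V986*/+ replicates 1 to 6, so that replicates 2, 3 and 4 were the high ones (1.92, limma adjp = 0.34). With these markers as a covariate, 16 of 30 ER folding genes, 8 of 22 HSP90 genes and 11 of 37 centrosome genes had an unadjusted p below 0.05 in the same direction as without it, where the counts were 15, 11 and 14, and 1 gene was called. Striatal markers were lower in 11 of 11 (2 at an unadjusted p below 0.05, median −0.32), and hippocampal markers in 9 of 10 (3 at an unadjusted p below 0.05, median −0.34), with Chd8 V986*/+ replicate 6 at 7.13 against 7.68 to 8.24 in the other 11 mice. Choroid plexus markers were at 5.52 to 6.71 in WT and 5.09 to 7.32 in Chd8 V986*/+ mice, with 0 of 12 at an unadjusted p below 0.05. The part of these markers in the results was not tested beyond these covariates.

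Of the cell type markers within the cortex, none but Cort was called. Over all genes tested, 5.39% were lower and 6.18% higher at an unadjusted p below 0.05. At an unadjusted p below 0.05, 1 of 13 excitatory neuron markers and 1 of 12 astrocyte markers were lower, as were 2 of 13 oligodendrocyte markers with 1 higher, 1 of 12 microglial markers with 1 higher, and 4 of 11 endothelial markers with 1 higher. Interneurons had 3 lower and 2 higher of 12, mural cells 2 lower and 1 higher of 13, and oligodendrocyte precursors 1 lower of 8. Among endothelial genes, Ly6c1 was 9.79, 9.64, 8.85, 8.97, 9.76 and 10.02 in WT replicates 1 to 6 and 8.75 to 9.19 in Chd8 V986*/+ mice (−0.47, limma adjp = 0.31), so that WT replicates 3 and 4 were again the low WT mice. Slco1a4 went the other way, at 10.04, 10.07, 10.48, 10.44, 10.02 and 10.02 in the same WT mice and 10.20 to 10.53 in Chd8 V986*/+ mice. Gpr17, a receptor of immature oligodendrocytes, was 9.86 to 10.45 in WT mice against 9.77 to 10.12 in Chd8 V986*/+ mice (−0.35, limma adjp = 0.21). Of the same list, Lhfpl3 and C1ql1 had higher medians in Chd8 V986*/+ mice (9.67 against 9.31 and 7.80 against 7.65). Neu4 and Olig1 had lower ones (7.51 against 7.62 and 11.34 against 11.46).

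Among groups that follow time of day or activity, 1 of 19 clock genes was lower and 2 were higher, and 3 of 22 immediate early genes were lower and 1 was higher. These counts are at an unadjusted p below 0.05, against 5.39% lower and 6.18% higher over all genes tested. The clock output genes Ciart and Dbp differed by 0.47 and 0.42 (limma adjp = 0.35 and 0.39), and Arntl, the clock activator BMAL1, by −0.27 (limma adjp = 0.35). Bdnf, an activity-induced growth factor gene, differed by −0.33 (limma adjp = 0.36) and Btg2, an early response gene, by 0.68 (limma adjp = 0.34). Interferon and MHC class I genes had 2 lower and 1 higher of 20, nuclear-retained RNAs 1 lower of 10, and cytosolic ribosomal proteins 1 lower of 49, with a median of −0.08 that was −0.02 without WT replicate 6.

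Whether the genotype effect depended on age was asked with the 36 mice of 1, 6 and 12 months. Comparisons that involve the 12-month groups share these mice and are not independent of each other. The genotype effect differed between 12 and 6 months for 7 of 17257 genes (0.0406%) and between 12 and 1 months for 12 (0.0695%). In WT mice 6 genes changed from 6 to 12 months (0.0348%), and in Chd8 V986*/+ mice 173 did (1.00%), 58 up and 115 down. These counts rested on single mice and their difference was not tested. Leaving out 1 mouse of 12 months gave 3 to 281 genes in WT mice (281 without replicate 2, 158 without replicate 3, 57 without replicate 4). In Chd8 V986*/+ mice it gave 5 to 149 (5 without replicate 3). Mice of 1 and 6 months were not left out.

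Dio3 led the first of these. It was 5.21 to 6.00 (median 5.64) in WT mice against 5.78 to 6.55 (median 6.12) in Chd8 V986*/+ mice at 6 months, a difference of 0.50 in the opposite direction to that at 12 months, and the effect changed by −1.31 (standard error 0.20, limma adjp = 0.0026). In Chd8 V986*/+ mice it fell by 0.67 from 6 to 12 months (limma adjp = 0.040), and in WT mice the difference was 0.64 (limma adjp = 0.12). Zfp566, a zinc finger gene, was higher in WT mice at 6 months, at 6.66 to 6.99 against 6.37 to 6.59, and lower at 12 months, at 6.33 to 6.75 against 6.74 to 7.17, an effect that changed by 0.72 (limma adjp = 0.035). Met fell in WT mice from 7.66 to 8.50 at 6 months to 7.16 to 7.81 at 12 months (−0.57, limma adjp = 0.061), and was 7.91 to 8.27 and 7.51 to 7.91 at these ages in Chd8 V986*/+ mice.

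No gene of the ER folding, HSP90 or TRiC groups passed the test of a different effect at 12 and 6 months, nor did one change from 6 to 12 months in either genotype. The mean level of the ER folding genes was 10.31 to 10.61 in WT mice against 10.39 to 10.61 in Chd8 V986*/+ mice at 6 months, and 10.33 to 10.78 and 10.31 to 10.39 at 12 months. Over the 30 genes, the median genotype effect was 0.05 at 6 months and 0.05 at 1 month, and the median change from 6 to 12 months was 0.12 in WT mice against −0.12 in Chd8 V986*/+ mice. The 12-month Chd8 V986*/+ mice lay in the lowest part of the range of the 6-month mice, WT replicates 3 and 4 lay with them at 10.33 and 10.36, and the other 4 WT mice of 12 months lay at 10.60 to 10.78. Within the HSP70 and DNAJ groups, Hspa1b fell by 0.95 and Dnajb5 by 0.52 from 6 to 12 months in Chd8 V986*/+ mice (limma adjp = 0.088 and 0.061). In the same mice Gpr17 fell by 0.52 (limma adjp = 0.019), Homer1, a scaffold gene of the synapse, by 0.56 (limma adjp = 0.063) and Per2, a clock gene, by 0.59 (limma adjp = 0.080), and the antigen-processing genes Psmb9 and Tap1 rose by 0.66 and 0.58 (limma adjp = 0.061 and 0.080). Between 12 and 1 months, the effect changed by −0.31 for Arpc2 and by −0.30 for Elk1 (limma adjp = 0.036 and 0.080).

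**Figure D5:**
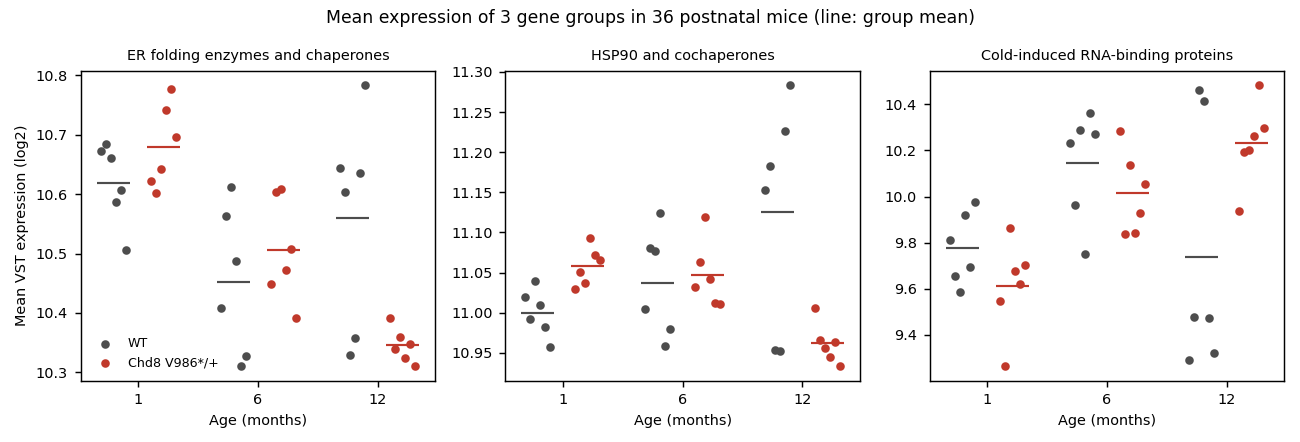
Mean VST expression (log2) of the ER folding, HSP90 and cold-induced gene groups in each of 36 WT (grey) and Chd8 V986*/+ (red) mice at 1, 6 and 12 months, with group means as lines. At 12 months the ER folding genes span 10.33 to 10.78 in WT and 10.31 to 10.39 in Chd8 V986*/+ mice, and 2 WT mice lie at the Chd8 V986*/+ level.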

How the data were processed

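RNA was sequenced from cortex of 6 WT and 6 Chd8 V986*/+ mice at 12 months with polyA-selected stranded libraries. Per the study's methods and the submitters' notes, reads were trimmed, aligned to mm9 with STAR 2.5.2b and quantified with Salmon 0.11.3. The authors deposited log2-scale VST values made with DESeq2 after a batch correction whose batches are not named in the sources used here. Replicates 1 to 3 and 4 to 6 had equal means in the table. Counts per gene were not used here.

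Genes with a mean at least 0.5 above the floor (the most frequent value, 2.14) were kept, which left 17288 of 24444. Genotypes were compared with limma 3.58.1 (R 4.3.3; empirical Bayes with trend), with Benjamini-Hochberg adjustment and adjp below 0.1. Ages were compared in one limma fit of the 36 postnatal mice. Of 43 gene lists, counts and medians are given without a set test. The members, lists and tests were chosen with earlier results of these data known. Named genes are the called genes, the 12 higher and 12 lower genes next by p without overlap of the genotypes, up to 5 members of each list by lowest p, and defining genes of the lists. Other list members and the genes called between ages were named after their values were seen. Each sample is a separate mouse. The code was tested on simulated data. Promoters came from RefSeq (GRCm38.p6) and gene positions from the GENCODE annotation of mm9.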

Additional observations from a re-analysis of the deposited data

Results flagged for a closer look

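Within-genotype spread was checked with Dixon's test in 80 groups of values for single genes and 86 for gene groups, where chance gives about 1 in 20, and 17 had 1 mouse past the critical value at the 95% level. Of these, 8 were WT replicate 6, whose read depth was 20094877. It was at 11.36 for Chd8 against 11.63 to 11.80 in the other WT mice, 11.66 for Usp11 against 11.78 to 11.84, and 2.85 for Mcoln2, a lysosomal channel gene, against 2.04 to 2.25. For Mcoln2 the other WT mice were at the floor of the scale. This gene passed the filter on low values only through the Chd8 V986*/+ mice, so its flag is not read as an outlier. The mean level of WT replicate 6 was 11.25 for TRiC and prefoldin against 10.94 to 11.03, 10.62 for the ER translocon against 10.40 to 10.48, 11.01 for the proteasome against 10.77 to 10.86, 7.86 for laminins, integrins and MET against 8.18 to 8.25, and 9.23 for ABC lipid transporters against 9.47 to 9.50. WT replicate 3 was at 9.36 for UPR factors against 9.46 to 9.51 and at 6.71 for choroid plexus markers against 5.52 to 5.90.

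Among Chd8 V986*/+ mice, replicate 6 was at 11.17 for Chd8 against 11.09 to 11.11, 14.47 for Hspa8 against 14.57 to 14.62, 9.66 for glucocorticoid-induced genes against 9.02 to 9.17, 11.09 for ribosomal proteins against 11.27 to 11.34, and 7.13 for hippocampal markers against 7.68 to 8.01. Replicate 2 was at 9.99 for cholesterol synthesis genes against 9.88 to 9.92, and replicate 1 at 12.02 for oligodendrocyte markers against 11.74 to 11.84.

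The genotype effect differed between 12 and 6 months, by limma's interaction term at adjp below 0.1, by −1.31 for Dio3 and 0.72 for Zfp566. The other values were −1.04 for Gm14057, 0.36 for Zfp26, 0.33 for Pdpr, 0.47 for Shroom1 and 1.53 for Sis. Sis lay near the floor of 2.14, at 2.14 to 3.45 in WT and 3.4 to 4.03 in Chd8 V986*/+ mice at 12 months. At 6 months Sis was at 3.34 to 3.9 and 2.15 to 3.75, so its value is not read as a change. Among the genes named at 12 months, the genotype effect differed between 12 and 1 months by −0.31 for Arpc2 and −0.30 for Elk1.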

How the results depend on the processing

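The 8 calls at 12 months became 2 with the replicate block, 3 with read depth, oligodendrocyte markers or endothelial markers as a covariate or at adjp below 0.05, and 520 in one fit of all 48 samples. Alternatives chosen after seeing the data gave 1 call each with Cirbp and Rbm3, glucocorticoid-induced or olfactory markers as a covariate and in replicates 1 to 3 alone, and 0 by limma in replicates 4 to 6 alone, where 1523 genes had an unadjusted p below 0.05. Genes with such a p numbered 688 with each of the first 2 covariates and 837 in replicates 1 to 3 alone. Chd8 was at −0.46 in replicates 4 to 6 alone (limma adjp = 0.555). Leaving out 1 mouse gave 2 (without WT replicate 1) to 251 calls (without WT replicate 3), with 4 or fewer without WT replicates 2 and 5 or Chd8 V986*/+ replicates 2 to 5, 5 without WT replicate 6, 16 without WT replicate 4, and 10 and 11 without Chd8 V986*/+ replicates 6 and 1.

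In the comparisons between ages, only mice of 12 months were left out in turn. The effect at 12 against 6 months gave 2 calls from only its groups, 4 with sample weights, 4 with the block and 2 to 169 leaving out 1 mouse (169 without WT replicate 3, 81 without 4). For 12 against 1 months it was 2 in one fit of 48, 0 by limma from only its groups, 2 with weights, 2 with the block and 3 to 430 (430 without WT replicate 4, 375 without 3). WT mice from 6 to 12 months gave 1 from only the groups, 3 with weights and 3 to 281 (281 without WT replicate 2, 158 without 3, 57 without 4). Chd8 V986*/+ mice gave 99 in one fit of 48, 592 from only the groups, 1032 with weights, 274 with the block and 5 to 149 (5 without replicate 3). With glucocorticoid-induced genes as a covariate, the sign turned for the log2 difference of Pglyrp1 (0.0104), the log2 difference of Opalin (−2e-04) and the log2 difference of Hsf1 (0.0159). Causes were not tested. Same-numbered mice were not paired by the labels, and their deviations correlated at −0.143 to 0.042. Depth behind single genes is unknown.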
